A study of Mus musculus with 12 samples.

Results

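The antiviral TRIM genes described here are 8 mouse genes, Trim21, Trim25, Trim30a, Trim34a, Trim14, Trim56, Trim26 and Trim12c, chosen by name from the TRIM family and found among the 54100 features that all count files list. TRIM proteins carry a tripartite motif, in most members a RING domain with ubiquitin ligase activity followed by B-boxes and a coiled coil, and many end in a PRY-SPRY domain that binds the target. Several of them are themselves interferon-stimulated genes, and they act on the sensors and adaptors that raise interferon, by adding ubiquitin chains that either activate a protein or mark it for destruction. The series concerns CK1α, a kinase encoded by Csnk1a1, and cGAS-STING signalling, the route by which cytosolic DNA raises interferon.

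RNA was sequenced from polyA+ libraries of 6 groups with 2 libraries each, all labelled C57BL/6J. SSTC3, a small molecule that activates CK1α, and its solvent DMSO were given to cells labelled as BMDM, which stands for bone marrow-derived macrophages, and their labels name TREX knockouts numbered TREX1-KO to TREX4-KO over the 4 libraries. Cells labelled MEF, mouse embryonic fibroblasts, carried CK1a overexpression or its control in one set and CK1a knockdown by siRNA or its control in another. No label gives a dose, a time, a construct, an siRNA sequence or a number of animals, and none says that replicates came from separate cultures. A p-value here therefore reflects only how far the libraries of a group scatter, and that scatter may be technical.

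Library totals ran from 16063627 to 19427506 counts. Csnk1a1 had a log2 fold change of −0.96 ± 0.05 (SE) in the knockdown comparison (adjusted p = 2.88e-27, edgeR), but of −0.01 ± 0.04 (adjusted p = 0.901) in the libraries labelled as overexpressing it, so the direction of that comparison rests on the label alone. It was 0.07 ± 0.04 with SSTC3 (adjusted p = 0.111). Macrophage transcripts were scarce in the 4 libraries labelled BMDM, where 21 macrophage markers summed to 11.3 to 12.2 CPM with SSTC3 and 9.38 to 9.44 CPM with DMSO. Of the 21, 12 had 0 counts in each SSTC3 library and 14 to 16 in the DMSO libraries. Adgre1 and Itgam were among those with 0 counts, and Adgre1 had 0 counts in the overexpression set too. Cd68 had 22 and 36 counts with SSTC3 and 39 and 41 with DMSO, and Csf1r had 5 and 10 with SSTC3 and 5 and 6 with DMSO. The 14 fibroblast markers summed to 8270 to 8350 CPM with SSTC3 and 9030 to 9320 CPM with DMSO. The sums were lower in the sets labelled MEF. They were 3890 to 3900 CPM in overexpression libraries and 4410 to 4450 CPM in their controls. In knockdown libraries they were 4180 to 4280 CPM, and 3560 to 3610 CPM in their controls. CPM is the count scaled to a library total of 1000000, and it is the scale of every level given here. In mm10 coordinates, Trim21 lies at chr7:102557921-102565486, Trim34a at chr7:104244457-104262234, Trim12c at chr7:104338754-104353362 and Trim30a at chr7:104409025-104465193. Trim25 lies at chr11:88999376-89020293, Trim14 at chr4:46493781-46536141, Trim56 at chr5:137105644-137116209 and Trim26, within the major histocompatibility region, at chr17:36837134-36859398.

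Promoter sequences of the members are shown because interferon is known to act on its target genes through the interferon-stimulated response element (ISRE), a pair of GAAA repeats. RefSeq promoter windows (GRCm38.p6, 250 bases before to 50 after a start of transcription) were found for 7 of the 8 members. The letters GAAANNGAAA, searched on both strands and counting overlapping matches, occurred in the windows of 5 of these 7, against 3.99% of all 27025 genes with a window. Trim21, Trim30a, Trim34a, Trim26 and Trim12c held a match, and those of Trim25 and Trim56 did not. A match is a description of the letters and does not show a bound site, and the members were chosen with their link to interferon known. The letters TTCNNNGAA, the core of the interferon-gamma activated site and its own reverse complement, were in none of the members' windows and in those of 9.55% of all genes.

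The window of Trim30a, the member with the largest rise in the knockdown libraries, runs over chr7:104465144-104465443 on the minus strand, and capitals mark the ISRE match, here the reverse complement of the motif, at bases −36 to −27 from the start.
Trim30a: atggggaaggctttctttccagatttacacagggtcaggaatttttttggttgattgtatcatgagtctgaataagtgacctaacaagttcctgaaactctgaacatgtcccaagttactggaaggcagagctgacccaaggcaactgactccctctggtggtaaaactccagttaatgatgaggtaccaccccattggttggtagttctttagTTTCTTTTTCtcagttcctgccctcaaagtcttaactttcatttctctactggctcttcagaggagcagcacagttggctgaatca

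The other matches are shown in stretches of 40 bases, on the strand of each gene, so that their spacing can be compared. The stretches lie at chr7:102565442-102565481 (Trim21, minus), chr7:104244455-104244494 (Trim34a, plus), chr17:36836974-36837013 (Trim26, plus) and chr7:104353351-104353390 (Trim12c, minus).
Trim21: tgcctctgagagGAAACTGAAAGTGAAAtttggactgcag
Trim34a: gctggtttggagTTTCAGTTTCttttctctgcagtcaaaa
Trim26: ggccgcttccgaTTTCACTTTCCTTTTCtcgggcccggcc
Trim12c: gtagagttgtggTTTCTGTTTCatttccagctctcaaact

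Trim21 and Trim26 each held 2 overlapping matches, so that 3 repeats follow each other at the same spacing. In Trim21 they began 14 and 20 bases after the start, on the strand of the gene. In Trim26 they ended at bases −151 and −145, the farthest from it among the members. The matches of Trim12c (−29 to −20) and Trim34a (11 to 20) lay close to the start, as did that of Trim30a.

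**Figure D1:**
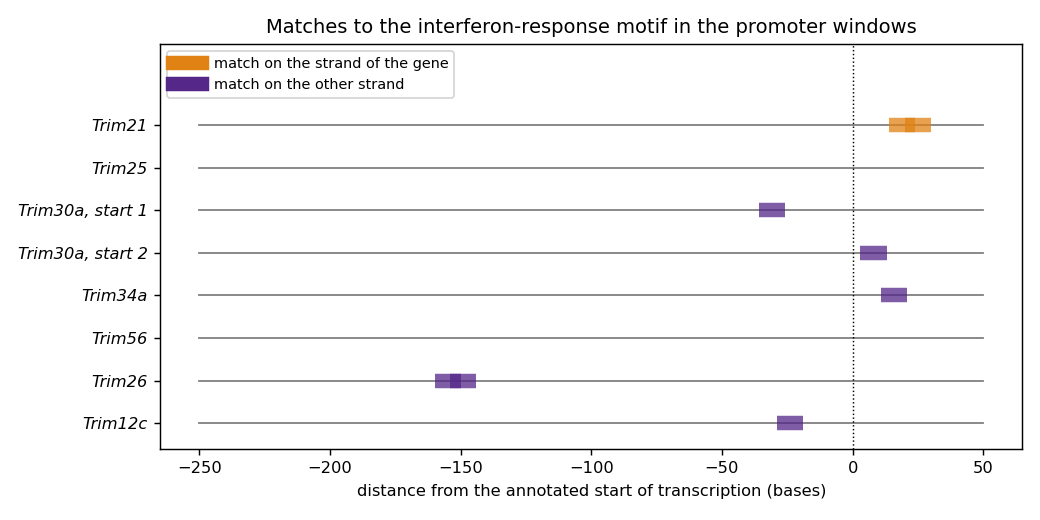
Promoter windows of 7 members (grey lines), with the distance from the annotated start of transcription in bases on the x axis and each match to the ISRE letters as a coloured block. Trim30a has a window for each of 2 annotated starts, each with 1 match, while Trim25 and Trim56 have none.

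Levels were compared across the 6 groups as CPM per kilobase of exon or as CPM. Trim25 had the highest level per kilobase of exon of all members in every group, with a highest mean of 106.7 CPM per kb in CK1a knockdown libraries and a lowest of 13.4 CPM per kb in DMSO libraries, and Trim26 was next in each. Of the 8 members, 7 had their highest group mean in the knockdown libraries, and all 8 but Trim14 had their lowest with DMSO. The exception, Trim14, never exceeded 11 counts in a library. The sets are separate experiments with controls of their own, so the levels across sets are a description with no test.

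**Figure D2:**
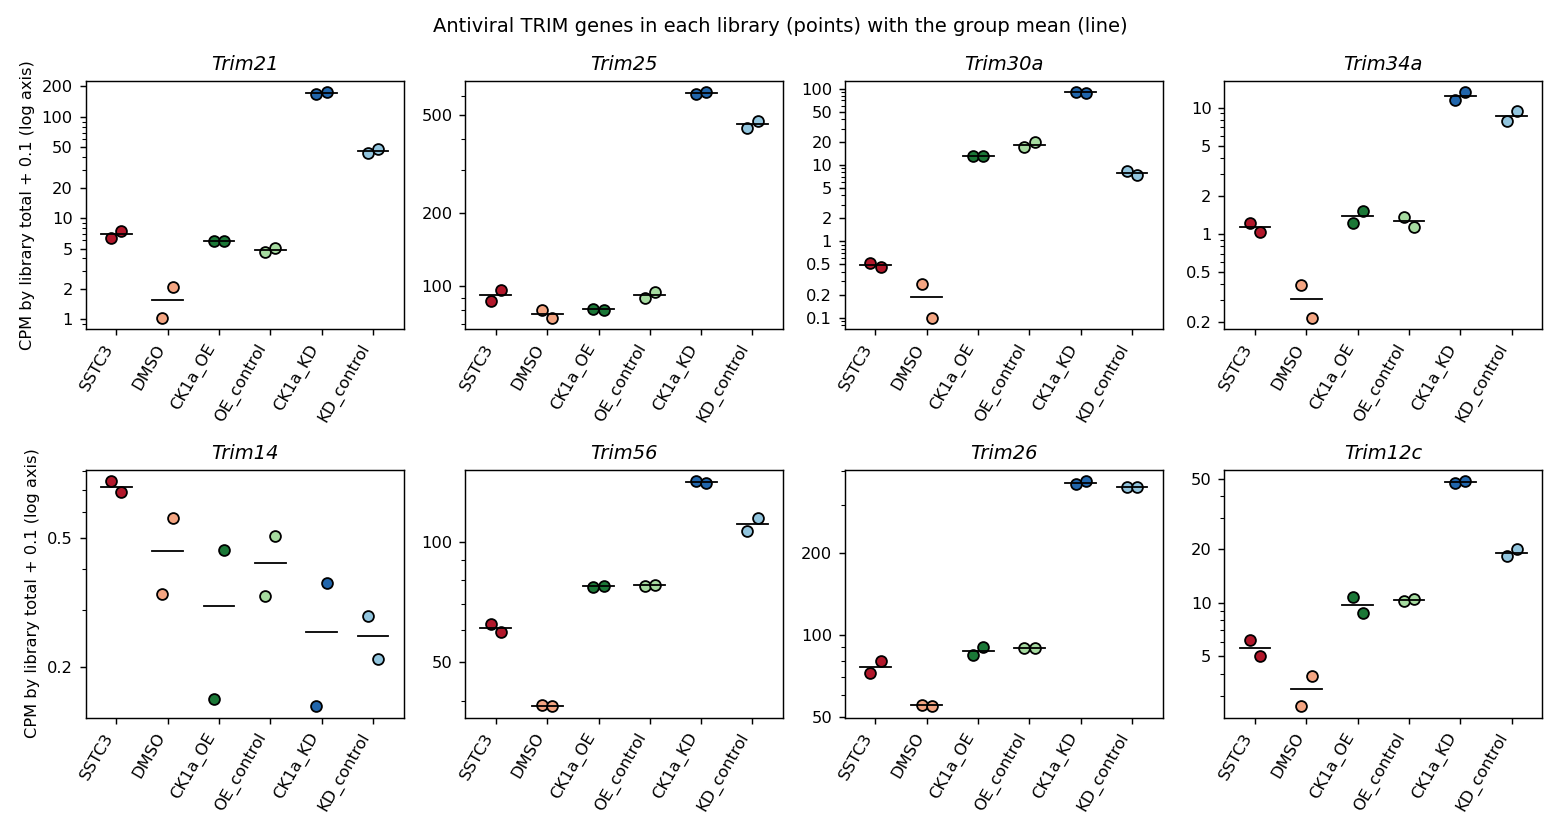
Level of each member in every library, as CPM by library total plus 0.1 on a log axis, by group. Points are libraries and lines group means (n = 2 libraries per group). The knockdown set stands above the other sets for Trim21, Trim25, Trim34a, Trim56, Trim26 and Trim12c, while for Trim30a its controls lie below the overexpression set.

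The control groups of the 3 sets differed in level. Trim21 averaged 45.8 ± 3.27 CPM in knockdown controls, 4.78 ± 0.311 CPM in overexpression controls and 1.45 ± 0.722 CPM with DMSO (SD, n = 2 each), although both control sets are labelled MEF. Trim25 averaged 458.4 ± 21.5, 92.3 ± 3.67 and 77.2 ± 3.79 CPM in the same groups, and Trim26 348.6 ± 0.189, 89.2 ± 0.456 and 54.9 ± 0.565 CPM. For Trim56 the spread was narrower, with 110.5 ± 5.68 CPM in knockdown controls, 77.8 ± 0.275 CPM in overexpression controls and 38.8 ± 0.204 CPM with DMSO. Trim30a broke this order, with 18.4 ± 1.77 CPM in overexpression controls, 7.81 ± 0.663 CPM in knockdown controls and 3 counts in 1 of the DMSO libraries against 0 in the other. In the order of means, neighbours whose ranges overlapped were SSTC3 with the overexpression controls and the overexpression libraries with DMSO for Trim25, the 2 groups of the overexpression set for Trim34a, Trim26 and Trim12c, and SSTC3 with the overexpression controls for Trim34a. For Trim14 all neighbours but SSTC3 and DMSO overlapped.

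The first comparison addresses the response to the CK1α activator. With SSTC3, 6 of the 8 members rose, none fell, Trim14 did not pass the test and Trim30a had too few counts to be tested. Trim34a and Trim14 passed the count filter only through their SSTC3 libraries, the group where they were higher. With at least 1 CPM required in 2 libraries, 5 members rose, and Trim34a and Trim14 were not tested. Over all 14151 genes tested, 53.6% passed at an adjusted p under 0.05, 27.1% higher and 26.5% lower. No member was lower at an unadjusted p under 0.05 or with DESeq2 either, where the counts were also 0. The 7 members tested had a median log2 fold change of 0.85, beside 0.01 for all genes tested. For all 8 members both SSTC3 libraries lay above both DMSO libraries, which held for 33.4% of the genes tested, while the reverse held for 41.9%. Fold changes and adjusted p-values are from edgeR's quasi-likelihood test with Benjamini-Hochberg adjustment over all genes tested, with 2 libraries per group, and are given with their SE.

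Trim21 is the cytosolic antibody receptor that ubiquitinates antibody-coated viruses and is known as the autoantigen Ro52. It had 6.30 and 7.31 CPM with SSTC3, against 0.938 and 1.96 CPM with DMSO. Its log2 fold change was 2.28 ± 0.25 (adjusted p = 6.94e-16), a 4.87-fold rise that 2.45% of all genes exceeded. The DMSO libraries held 16 and 33 counts of it and set its size, since the log2 fold change was 1.84 without DMSO replicate 1 and 2.90 without DMSO replicate 2, passing in both. Trim34a, the mouse relative of human TRIM34, which acts with TRIM5 against HIV capsids, had 19 and 16 counts with SSTC3 and 5 and 2 with DMSO. Only its SSTC3 counts brought it past the filter, so its test depends on the group where it is high. It rose by a log2 fold change of 2.33 ± 0.65 (adjusted p = 0.00106), but the call ended without DMSO replicate 2 (1.84, adjusted p = 0.0667) or without SSTC3 replicate 1 (2.21, adjusted p = 0.0614), and without DMSO replicate 1 the value was 3.09. Trim12c, a mouse relative of primate TRIM5, the factor that restricts retroviruses, had 6.07 and 4.9 CPM with SSTC3, against 2.52 and 3.80 CPM with DMSO. Its change of 0.85 ± 0.23 (adjusted p = 0.000594) did not pass without DMSO replicate 1 (0.58, adjusted p = 0.0622) or without SSTC3 replicate 1 (0.68, adjusted p = 0.0552).

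The other members that rose were Trim56, Trim26 and Trim25. Trim56, which ubiquitinates cGAS and STING, had 62.1 and 59.2 CPM with SSTC3, against 38.9 and 38.6 CPM with DMSO, a log2 fold change of 0.70 ± 0.07 (adjusted p = 4.89e-18). Trim26, reported to ubiquitinate the transcription factor IRF3 in the nucleus, had 72.2 and 80.0 CPM with SSTC3, against 55.3 and 54.5 CPM with DMSO, and rose by 0.53 ± 0.06 (adjusted p = 1.41e-13). For Trim25, which activates the RNA sensor RIG-I and attaches ISG15 to proteins, the values were 87.2 and 96.7 CPM with SSTC3 and 79.9 and 74.6 CPM with DMSO. That was the smallest rise among the called members (0.31 ± 0.06, adjusted p = 1.66e-06), exceeded by 26.4% of all genes.

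Trim14 and Trim30a were near the limit of detection in these cells. Trim14, a member without a RING domain that serves as an adaptor of MAVS and stabilises cGAS, had 11 and 10 counts with SSTC3 and 4 and 8 with DMSO, a log2 fold change of 0.85 ± 0.65 (adjusted p = 0.273). Of its exonic bases, 31.3% overlap Nans on the opposite strand, and whether the counting used strand is not given in the sources used here, so its level is uncertain in every library. Trim30a, a mouse gene known to restrain NF-κB signalling by degrading TAB2 and TAB3 and to act on STING, had 7 and 6 counts with SSTC3 and 3 and 0 with DMSO. The ratio of its summed CPM was 4.33, with an exact 95% interval of 1.19 to 23.7 that covers counting error only.

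The second comparison addresses the response to added CK1a in one set of cells labelled MEF. In the overexpression libraries 2 of the 8 members fell, none rose, 5 did not pass and Trim14 was not tested, with 1 and 6 counts in overexpression libraries and 4 and 7 in controls. The count of members that rose was also 0 at an unadjusted p under 0.05 and with DESeq2. Over the 13958 genes tested, 13.3% passed, with 5.78% higher and 7.57% lower (807 and 1056 genes, but 978 and 948 with library totals as the scaling), and the median log2 fold change was −0.05 for the members tested and 0.00 for all genes. Both overexpression libraries lay below both controls for 3 members, Trim25, Trim30a and Trim56, and above them for Trim21, against shares of 24.4% and 29.4% of all genes tested.

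Trim30a had 13.1 and 13.1 CPM in overexpression libraries, against 17.1 and 19.6 CPM in controls. The log2 fold change was −0.51 ± 0.12 (adjusted p = 0.00266). Trim25 had 81.1 and 79.9 CPM in overexpression libraries, against 89.7 and 94.9 CPM in controls, with a change of −0.21 ± 0.05 (adjusted p = 0.00353). Neither call held with DESeq2, where the adjusted p was 0.0517 for Trim30a and 0.0758 for Trim25, or without OE_control replicate 2, where it was 0.0964 (−0.40) and 0.0997 (−0.17).

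The other members differed by less than the test could call. Trim21 had 5.77 and 5.78 CPM in overexpression libraries and 4.56 and 5.0 CPM in controls (0.26 ± 0.21, adjusted p = 0.464). Trim56 was nearly level, with 77.1 and 77.5 CPM in overexpression libraries and 77.6 and 78.0 CPM in controls (−0.02 ± 0.05, adjusted p = 0.847). Trim26 had 84.3 and 90.0 CPM in overexpression libraries, against 88.9 and 89.5 CPM in controls, so that the groups overlapped. The groups also overlapped for Trim12c (−0.10 ± 0.15, adjusted p = 0.734) and Trim34a (0.13 ± 0.43, adjusted p = 0.891). Trim34a had only 19 and 24 counts in overexpression libraries and 22 and 18 in controls.

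The third comparison addresses the loss of CK1a in the second set labelled MEF. With knockdown, 6 of the 8 members rose and none fell, while Trim26 did not pass and Trim14, with 1 and 5 counts in knockdown libraries and 3 and 2 in controls, was not tested. The share of all 14832 genes that passed was 54.7%, with 28.3% higher and 26.4% lower. No member was lower at an unadjusted p under 0.05 or with DESeq2 (0 each). The members tested had a median log2 fold change of 0.56, beside −0.01 for all genes. The knockdown libraries lay above both controls for 7 members, which held for 35.5% of the genes tested, while the reverse held for 40.2%.

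Trim30a rose the most. It had 89.4 and 88.5 CPM in knockdown libraries, against 8.28 and 7.34 CPM in controls. This was an 11.7-fold rise (log2 fold change 3.55 ± 0.10, adjusted p = 2.11e-41), and 37 of the 14832 genes tested had a larger rise. Trim21 had 169.0 and 175.1 CPM in knockdown libraries, against 43.5 and 48.1 CPM in controls, and rose by 1.94 ± 0.06 (adjusted p = 1.08e-37). Trim12c followed with 46.9 and 48.3 CPM in knockdown libraries, against 18.2 and 19.9 CPM in controls (1.36 ± 0.09, adjusted p = 2.64e-20). For these 3 genes the groups lay far apart relative to the spread of their replicates, and leaving out any 1 library kept each log2 fold change within 0.1 of its value.

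The remaining rises were smaller. Trim25, already the most abundant member per kilobase, had 608.8 and 619.6 CPM in knockdown libraries and 443.2 and 473.6 CPM in controls (0.46 ± 0.04, adjusted p = 7.15e-15). Trim56 had 141.7 and 140.3 CPM in knockdown libraries, against 106.5 and 114.6 CPM in controls (0.39 ± 0.05, adjusted p = 8.42e-09). Trim34a had 11.3 and 13.1 CPM in knockdown libraries, against 7.72 and 9.25 CPM in controls (0.56 ± 0.15, adjusted p = 0.0014). Trim26 had 356.8 and 366.7 CPM in knockdown libraries and 348.7 and 348.5 CPM in controls, a change of 0.09 ± 0.04 that did not pass (adjusted p = 0.0753). It was 0.05 with library totals as the scaling (adjusted p = 0.307) and 0.08 with DESeq2 (adjusted p = 0.176). The value was 0.09 without either KD_control replicate, 0.12 without CK1a_KD replicate 1 and 0.07 without CK1a_KD replicate 2. The 21 macrophage markers summed to 301 to 303 CPM in knockdown libraries and 256 to 262 CPM in controls, nearly all of it Cd68 (295.3 ± 1.03 and 249 ± 4.26 CPM, SD, n = 2), and the other markers were far lower. Adgre1 had 2 and 3 counts in knockdown libraries and 0 in controls, and Csf1r 4 in each knockdown library and 1 in each control. Lyz2 averaged 2.21 ± 0.739 CPM in knockdown libraries and 3.52 ± 0.406 CPM in controls, and Spi1 0.208 ± 0.00313 and 0.688 ± 0.26 CPM in the same groups. Ptprc had 0 counts in knockdown libraries, against 1 to 2 in controls. Their part in the rises was not tested, and in bulk samples fewer cells of a type and less RNA per cell cannot be told apart.

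**Figure D3:**
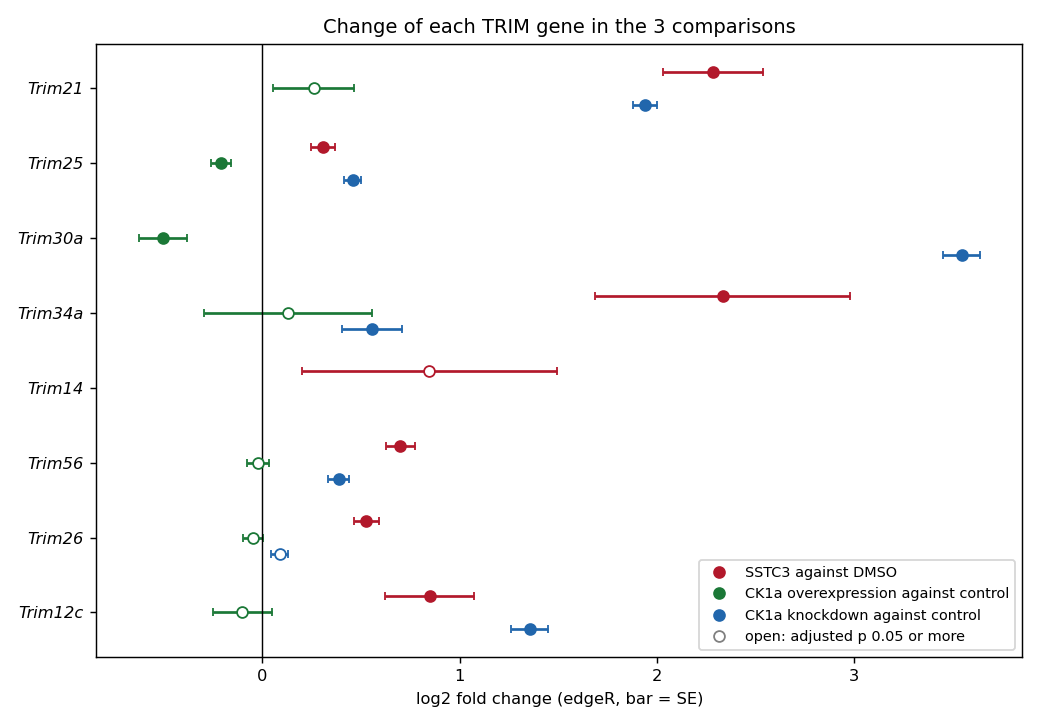
Log2 fold change of each member in the 3 comparisons (x axis, edgeR; bars are SE, filled points passed at an adjusted p under 0.05; 2 libraries per group). Filled points lie to the right of 0 for SSTC3 and knockdown and to the left for overexpression, where only Trim25 and Trim30a are filled. Trim30a (SSTC3) and Trim14 (both MEF sets) were not tested and have no point.

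Differences between these effects were tested with edgeR over 17105 genes, in a model that held all 12 libraries with a mean per group, since the 3 comparisons share no library. The comparisons differ in cell set and control level as well as in treatment, and the SSTC3 set also in its cell and knockout labels. A difference between effects cannot be assigned to one of these. Trim30a was not tested with SSTC3 alone, nor Trim14 in either MEF set. Both passed the filter of this model through their counts in other sets. The SSTC3 effect exceeded the knockdown effect for 3 of the 8 members, beside 45.1% of all genes that differed in either direction, 23.5% in this one and 21.6% in the other. These were Trim26 (difference in log2 fold change 0.47 ± 0.07, adjusted p = 1.63e-08), Trim56 (0.34 ± 0.08, adjusted p = 0.000425) and Trim34a (1.81 ± 0.60, adjusted p = 0.00996). The Trim34a difference did not pass without DMSO replicate 2 (1.31, adjusted p = 0.137) and was 2.56 without DMSO replicate 1. Trim21 (0.37 ± 0.24, adjusted p = 0.209), Trim30a (−1.44 ± 1.11, adjusted p = 0.311), Trim14 (0.76 ± 1.35, adjusted p = 0.709) and Trim12c (−0.48 ± 0.23, adjusted p = 0.0847) did not pass. The sign of the Trim30a difference turned with the DMSO library left out, at 2.27 without DMSO replicate 1 and −2.38 without DMSO replicate 2. That of Trim14 was 0.02 without CK1a_KD replicate 1 and 2.25 without CK1a_KD replicate 2. Trim21 passed without DMSO replicate 2 (0.99, adjusted p = 0.013) and was −0.08 without DMSO replicate 1 (adjusted p = 0.922), while Trim12c passed without DMSO replicate 1 (−0.76, adjusted p = 0.0151) or SSTC3 replicate 1 (−0.65, adjusted p = 0.0398). For Trim25 the difference was −0.12 ± 0.07 (adjusted p = 0.136), and it passed with library totals as the scaling (−0.17, adjusted p = 0.0306), without SSTC3 replicate 2 (−0.21, adjusted p = 0.0153) or without KD_control replicate 2 (−0.18, adjusted p = 0.0215).

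The knockdown effect exceeded the overexpression effect for 5 members, Trim30a (4.02 ± 0.16, adjusted p = 4e-38), Trim21 (1.65 ± 0.18, adjusted p = 9.5e-13), Trim12c (1.42 ± 0.18, adjusted p = 1.24e-10), Trim25 (0.63 ± 0.07, adjusted p = 8.81e-14) and Trim56 (0.37 ± 0.08, adjusted p = 5.93e-05). Over all genes 35.1% differed, 18.3% in this direction and 16.8% in the other. Trim34a (0.39 ± 0.41, adjusted p = 0.521), Trim26 (0.10 ± 0.07, adjusted p = 0.257) and Trim14 (0.69 ± 1.42, adjusted p = 0.79) did not pass. The SSTC3 effect exceeded the overexpression effect for 7 members, all but Trim14 (1.45 ± 1.17, adjusted p = 0.381). Among the 7 is Trim30a, which had too few counts to be tested in the SSTC3 comparison itself. Over all genes 32.7% differed, 17.2% in this direction and 15.5% in the other. Of these, Trim34a (1.71, adjusted p = 0.0898) and Trim30a (1.65, adjusted p = 0.139) did not pass without DMSO replicate 2, nor Trim12c without DMSO replicate 1 (0.67, adjusted p = 0.0538), and the value of Trim30a, which rests on the 3 counts it had with DMSO, was 6.30 without DMSO replicate 1. The Trim21 difference was 2.02 ± 0.27 (adjusted p = 1.65e-09), with 1.57 without DMSO replicate 1 and 2.64 without DMSO replicate 2.

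Trim34a, Trim12c and Trim30a belong to a cluster of 10 TRIM genes on chromosome 7 (mm10, from 104218793 to 104507849) with near copies of each other, Trim34b, Trim12a, Trim30b, Trim30c and Trim30d, so reads may be split between copies and each gene's own level is uncertain. Trim30d resembled Trim30a in the knockdown comparison, with a log2 fold change of 3.08 ± 0.19 (adjusted p = 5.37e-22), and had 316 and 295 counts in knockdown libraries, against 25 and 40 in controls. Trim30c rose by 2.50 ± 0.26 (adjusted p = 9.61e-13). Trim6, a ligase that makes unanchored ubiquitin chains for interferon signalling and is no near copy, rose with SSTC3 (1.30 ± 0.21, adjusted p = 1.99e-08) and in the knockdown (0.53 ± 0.10, adjusted p = 1.06e-05). The start of Trim30d carries the same 40 bases as that of Trim30a around the ISRE match, at chr7:104507863-104507902 and chr7:104465202-104465241 on the minus strand, and that of Trim12a (chr7:104315458-104315497, minus) shares 38 of 40 bases with Trim12c. The windows of Trim30c, Trim34b, Trim6 and Trim30b held no ISRE match. That of Trim5, a gene with at most 3 counts in any library, held 1, within the same 40 bases as those of Trim12a. Trim5 was not among the copies whose counts were summed. Whether a match goes with a rise was not tested. Capitals mark the match.
Trim30d: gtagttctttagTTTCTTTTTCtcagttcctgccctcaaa
Trim30a: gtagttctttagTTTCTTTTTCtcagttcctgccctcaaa
Trim12a: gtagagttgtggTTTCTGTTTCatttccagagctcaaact

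The levels of the copies differed between the cell sets. Trim30d had 0 counts in all 4 SSTC3 and DMSO libraries, 59 and 59 counts in overexpression libraries and 57 and 58 in their controls. Trim12a had 46 and 33 counts in overexpression libraries and 20 and 16 in controls, a rise of 1.15 ± 0.38 (adjusted p = 0.034), but at most 3 counts in any library of the other sets, where Trim12c had up to 919. Trim34b rose with SSTC3 (1.92 ± 0.43, adjusted p = 4.11e-05) and did not pass in the knockdown (0.14 ± 0.10, adjusted p = 0.242). With the counts of near copies summed, Trim34a and Trim34b together rose with SSTC3 (2.04 ± 0.35, adjusted p = 1.29e-07) and in the knockdown by 0.24 ± 0.09 (adjusted p = 0.0134), less than the 0.56 of Trim34a alone. The 4 Trim30 genes together rose by 3.37 ± 0.08 in the knockdown (adjusted p = 2.68e-43) and fell by 0.42 ± 0.11 on the log2 scale in the overexpression libraries (adjusted p = 0.00743).

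**Figure D4:**
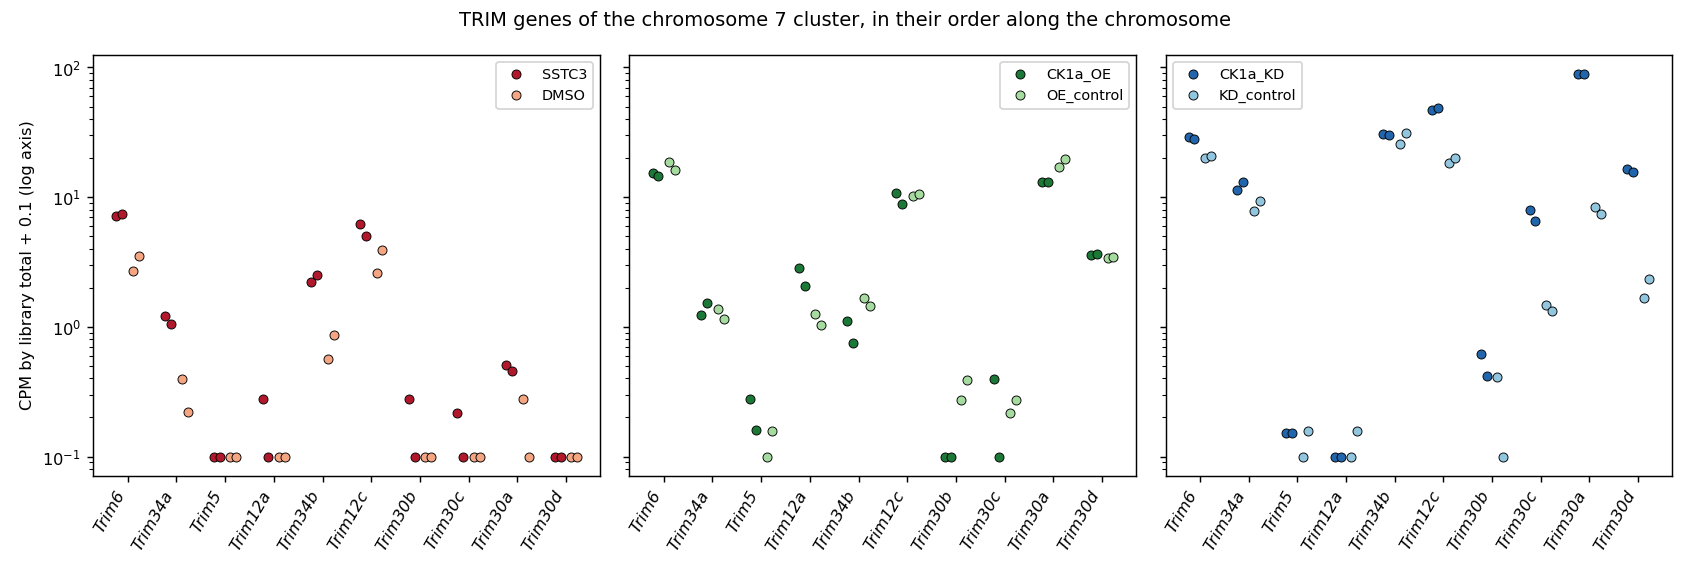
Levels of the 10 TRIM genes of the chromosome 7 cluster in each library (points), as CPM by library total plus 0.1 on a log axis, in their order along the chromosome, for the SSTC3, overexpression and knockdown sets. In the knockdown set Trim30a, Trim30c and Trim30d lie above their controls together, and in the SSTC3 set Trim30d and Trim5 have 0 counts in all 4 libraries, while Trim12a, Trim30b and Trim30c have 0 counts with DMSO.

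The other TRIM genes of the annotation, 61 in number, include the near copies and cluster neighbours of the members. They were called in both directions with SSTC3 and in the knockdown, as were all genes tested. Of all genes, 27.1% were higher and 26.5% lower with SSTC3, and 28.3% and 26.4% in the knockdown. In the overexpression libraries the shares were 5.78% and 7.57%. With SSTC3, 15 of the 32 tested rose, 9 fell and 8 did not pass, with a median log2 fold change of 0.30. Those with the smallest p-values were Trim8 (0.77 ± 0.05, adjusted p = 2.48e-42), a regulator of cytokine signalling, Trim36 (2.85 ± 0.20, adjusted p = 4.82e-33), Trim39 (0.73 ± 0.06, adjusted p = 8e-23) and Trim47 (0.64 ± 0.06, adjusted p = 1.94e-21). In the knockdown, 14 of 39 rose, 10 fell and 15 did not pass, with a median of 0.03. Trim30d, which had the smallest p-value, Trim30c and Trim6 were among these risers, and Trim34b and Trim6 among those with SSTC3. Trim28, the KAP1 corepressor of retroelements, rose by 0.66 ± 0.04 (adjusted p = 4.58e-21) and Trim59 by 1.5 ± 0.11 (adjusted p = 1.43e-18), while Trim46, a microtubule-bundling protein of axons, had a log2 fold change of −1.26 ± 0.10 (adjusted p = 4.8e-17). In the overexpression comparison 3 of 34 rose, none fell and 31 did not pass, and the risers besides Trim12a were Trim44 (0.14 ± 0.04, adjusted p = 0.00714) and Trim23 (0.22 ± 0.07, adjusted p = 0.0247). At an unadjusted p under 0.05, 4 of them were lower, and DESeq2 called 0 in either direction.

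The partners and substrates of the members, a list of 31 genes that were all tested, rose in 12 cases and fell in 7 with SSTC3 (median 0.09), rose in 22 and fell in 5 in the knockdown (median 0.33), and rose in 3 and fell in 4 in the overexpression libraries (median −0.02). Over all genes 27.1% were higher and 26.5% lower with SSTC3, 28.3% and 26.4% in the knockdown, and 5.78% and 7.57% in the overexpression libraries, where DESeq2 called 0 partners higher and 1 lower. Isg15, Usp18, Ddx58 and Ifih1 are also counted among the interferon-stimulated genes below, so the 2 lists are not separate. Ddx58, the gene of the Trim25 substrate RIG-I, had 457.8 ± 2.49 CPM in knockdown libraries, against 174.0 ± 15.2 CPM in controls (1.43 ± 0.05, adjusted p = 7.98e-35). Of the partners with the smallest p-values in the knockdown, Isg15, the ubiquitin-like protein that Trim25 attaches, averaged 796.0 ± 14.9 CPM in knockdown libraries and 368.8 ± 2.86 CPM in controls, and Ube2l6, its conjugating enzyme, averaged 97.2 ± 0.544 and 23.7 ± 1.43 CPM in the same groups (SD, n = 2 each). Usp18, which removes ISG15 from proteins, had 249.9 ± 0.0478 CPM in knockdown libraries and 32.9 ± 0.896 CPM in controls (2.96 ± 0.06, adjusted p = 1.63e-48). With SSTC3, Zc3hav1, the antiviral protein ZAP that needs Trim25 as a cofactor, had 128.1 ± 0.806 CPM, against 80.0 ± 5.73 CPM with DMSO (0.73 ± 0.05, adjusted p = 4.54e-30), and Ifih1, the RNA sensor MDA5, rose by 4.17 ± 0.12 (adjusted p = 3.35e-96). In the overexpression libraries Usp18 (−0.83 ± 0.20, adjusted p = 0.00269), Isg15 (−0.38 ± 0.09, adjusted p = 0.00399) and Vcp (−0.17 ± 0.03, adjusted p = 2.29e-05), the unfoldase used by Trim21, fell, and Cgas rose (0.21 ± 0.07, adjusted p = 0.0255).

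Among 48 interferon-stimulated genes outside the TRIM family, all 48 rose in the knockdown, with a median of 1.69, and 36 of the 45 tested rose and 2 fell with SSTC3, with a median of 1.81. This list was chosen with earlier results of these data known, so its counts are a description. Over all genes, 28.3% were higher and 26.4% lower in the knockdown, and 27.1% and 26.5% with SSTC3. In the overexpression libraries 13 of 41 fell and none rose (median −0.28), beside 7.57% lower and 5.78% higher over all genes. No gene of the list was higher there at an unadjusted p under 0.05, and DESeq2 called 0 of them higher and 4 lower. The medians of the antiviral TRIM genes, 0.56 in the knockdown and 0.85 with SSTC3, were below those of this list, and the 2 lists were not tested against each other. Of the genes with the smallest p-values, Mx1 rose by 5.23 ± 0.09 (adjusted p = 1.48e-52) and Igtp, an immunity-related GTPase, by 4.68 ± 0.07 (adjusted p = 9.69e-56) in the knockdown.

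**Figure D5:**
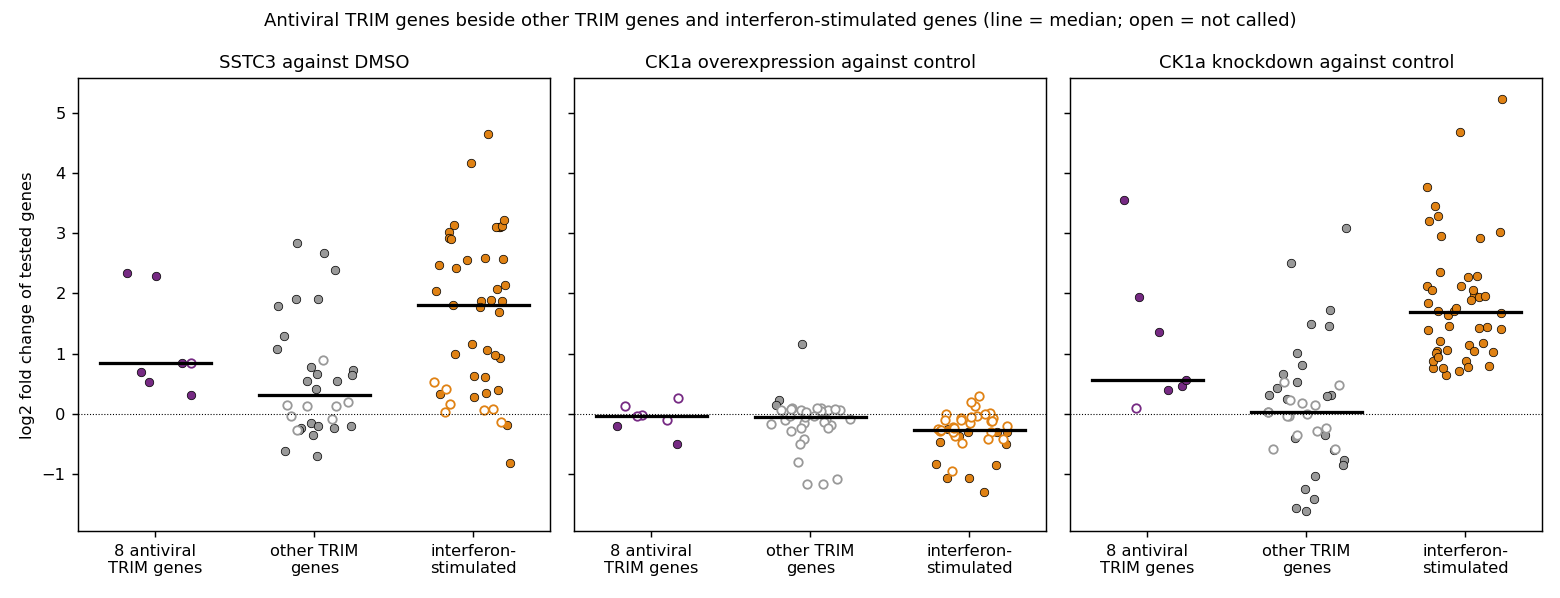
Log2 fold change (y axis) of the tested genes among the 8 antiviral TRIM genes, the other TRIM genes and the interferon-stimulated genes in each comparison. Points are genes (filled where the adjusted p was under 0.05) and lines medians. The other TRIM genes, which include near copies of the members, spread to both sides of 0 with SSTC3 and in the knockdown. No antiviral TRIM gene lies below 0 there.

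How alike the members were to each other was described by Pearson's r of log2(CPM + 0.5), centred within each set, over the 12 libraries, which share their sets and treatments, so no p is given. Trim34a and Trim56 were most alike (r = 0.952), then Trim21 and Trim56 (0.93) and Trim21 and Trim12c (0.925), and Trim30a was least like Trim14 (0.107) and Trim26 (0.277). Over 11730 genes, those closest to Trim30a were Parp9 (0.997), Igtp (0.996) and Sbno2 (0.996), and those closest to Trim56 were Pabpc1 (0.996), Hivep2 (0.992) and Ifit1 (0.991). Trim30a averaged 0.383 CPM with SSTC3 and 0.088 CPM with DMSO, below the 0.5 that was added. That addition shrinks its change in the SSTC3 set, so its r values depend on it. Trim21 was closest to Gcnt4 (0.986), Bahd1 (0.986) and Ivns1abp (0.985), and Trim25 to Tacr2 (0.958), Cx3cl1 (0.954) and B4galt5 (0.954). For Trim26 these were Pik3r5 (0.98), Klhl21 (0.979) and Ccnd1 (0.978), for Trim12c Pcgf5 (0.975), Rassf1 (0.974) and Pqlc3 (0.97), and for Trim34a Ppp1r15b (0.967), Mns1 (0.966) and Bet1l (0.964). Trim14, with few counts, reached only 0.864 (Gm15501), 0.854 (AW011738) and 0.843 (Apol7a).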

How the data were processed

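The deposited files hold whole-number counts per gene, one file per library, which the authors made with HISAT2 and featureCounts on mm10, per the submitters' processing notes. Their versions, strand setting and annotation are not given. The overexpression files list 55401 features and the other files 54532. Symbols and positions come from GENCODE M21 (mm10). The 4 libraries of a comparison were then fitted alone with edgeR 4.0.16 in R 4.3.3 (filterByExpr, TMM factors, robust quasi-likelihood F test, no block, 2 residual degrees of freedom), and the SE is the absolute log2 fold change divided by the square root of F. The procedure was also run on simulated counts with known changes in a small part of the genes. A far larger share was called with SSTC3 and in the knockdown, so that run does not test the scaling there. Levels are CPM by library total. Replicate pairs differed by more than sampling noise (chi-square per degree of freedom 2.29 to 3.61), so none was counted as a copy. Alternatives were RLE factors, library totals, DESeq2 1.42.0, other filters, all 12 libraries, a replicate block, summed near copies and leaving out each library. The genes named are the 8 members, Csnk1a1, the near copies, up to 4 genes per list and comparison by smallest p, and the 3 genes most alike to each member; the text gives those that bear on the members. Adgre1, Itgam, Cd68, Csf1r, Lyz2, Spi1, Ptprc and Nans were chosen after their values were seen. The members and lists were chosen with earlier results of these data known. Intervals cover counting error only.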

Additional observations from a re-analysis of the deposited data

How the results depend on the processing

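With 2 libraries per group, 12 values of single members lost and 8 gained the threshold over 490 values under alternatives, no called value changed sign, and 33 of 45 results kept their side of the threshold throughout. In the overexpression comparison the count of members that fell was 0 with DESeq2 in place of 2, and 0 to 2 when any 1 library was left out. All genes called there numbered 1863, against 607 with DESeq2, 1188 with all 12 libraries and 1065 to 1478 without 1 library. The cause was not tested. With library totals as the scaling, 3290 genes were higher and 4419 lower with SSTC3, against 3830 and 3749. With the replicate block 1768 genes were called there, 7303 with SSTC3 and 8066 in the knockdown, and the block changed no call of a member. Replicate numbers showed no shared structure (correlations of deviations −0.0156, −0.0096 and 0.00504 for SSTC3, overexpression and knockdown). Depth limits Trim14 in every set, Trim30a in the SSTC3 set and Trim34a in the SSTC3 and overexpression sets.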
